A study of Mus musculus with 9 samples.

Results

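The genes described here are 10 genes of prolactin signalling and milk production in the mouse mammary gland. The choice was made by name, with earlier results of these data known. They are the prolactin receptor gene Prlr, the transcription factor genes Stat5a and Stat5b, the inhibitor gene Socs2, the milk fat globule genes Btn1a1, Xdh and Mfge8, and the milk protein genes Trf, Wfdc18 and Csn3. All 10 were found by Entrez ID among the 24594 genes of the count table, and all 10 passed the filter on low counts. Btn1a1, Trf, Wfdc18 and Csn3 passed it through the control libraries alone.

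The cells were BG2, a line grown out of a tumour that arose in the mammary gland of an MMTV-NIC mouse, in which a viral promoter active in mammary epithelium drives the oncogene Neu together with Cre recombinase. Clone 1 and clone 2 were Sox10 CRISPR knockout lines, each expanded from an edited bulk population with guides against exon 3 of the open reading frame. The control was the wild-type bulk population of the same line, whose library names hold the letters NTC, and all 3 groups carry the Neu-IRES-Cre transgene. Each group had 3 technical replicates, so every p-value measures only the spread between libraries of 1 population and 2 clones. The clones were edited and expanded while the control was a bulk population, so loss of Sox10 cannot be told apart from cloning here. The sources used here do not say whether the medium held prolactin or other lactogenic hormones.

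Prolactin binds its receptor on the cell surface and activates the kinase JAK2, which phosphorylates STAT5A and STAT5B. The phosphorylated factors enter the nucleus and bind DNA elements of the form TTCNNNGAA, and in the pregnant and lactating gland they switch on genes of milk proteins and milk fat. SOCS2 and CISH are inhibitors whose genes STAT5 itself induces. RNA counts show the level of these transcripts and not the phosphorylation of STAT5.

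Total counts ranged from 65805296 to 83282841 per library. Levels are given as CPM, the usual count unit that removes differences in library size, after scaling by TMM (trimmed mean of M-values), and log2 fold changes carry a standard error. In every group replicate 1 stood apart: a chi-square of the counts per degree of freedom was 25.5 to 49.2 for pairs with replicate 1 and 5.48 to 9.98 for replicates 2 and 3, so no library was a copy of another. Summed markers of luminal epithelium (Krt8, Krt18, Krt19, Epcam, Cdh1 and Elf5) lay at 1109 to 1261 CPM in clone 1, 1362 to 1543 CPM in clone 2 and 5179 to 6161 CPM in the control. Of the 5 tested, 5 fell in both clones, as did 29.4% of all genes tested. Epcam, a surface protein of epithelium, had 7 counts in clone 1, 0 in clone 2 and 147918 in the control, whereas Krt8 averaged 666 CPM in clone 1, 787 CPM in clone 2 and 2393 CPM in the control. Summed basal markers lay at 91.6 to 93.0 CPM in clone 1, 185 to 199 CPM in clone 2 and 10.2 to 12.6 CPM in the control, and 6 of 7 rose in both clones. Summed fibroblast markers lay at 177 to 179.9 CPM in clone 1, 107 to 115.5 CPM in clone 2 and 9.16 to 10.6 CPM in the control, most of it from Pdgfra. Summed immune markers lay at 9.34 to 11.1 CPM in clone 1, 37.9 to 39.8 CPM in clone 2 and 7.24 to 12.4 CPM in the control, most of it from Cd68, while Ptprc, which marks all leukocytes, had 0 counts in both clones. Summed adipocyte markers lay at 3.44 to 4.41 CPM in clone 1, 7.93 to 9.90 CPM in clone 2 and 0.554 to 0.729 CPM in the control. Of these, Fabp4 was the 1 gene tested and rose in both clones, and Adipoq had 0 counts in both. Summed endothelial markers lay at 15.9 to 18.2 CPM in clone 1, 0.816 to 1.09 CPM in clone 2 and 0 to 0.108 CPM in the control, and in clone 1 most of it came from Kdr. The part of these markers in the results below was not tested, and in bulk RNA fewer cells of a type cannot be told apart from less RNA per cell.

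Sox10, the targeted gene, had 0, 6 and 0 counts in clone 1 and 0, 2 and 2 counts in clone 2, against 16660, 21437 and 26038 counts in the control. The ratio of summed counts was 10110-fold lower in clone 1 (95% counting interval 3459 to 49020) and 16970-fold lower in clone 2 (95% counting interval 4696 to 140100). Here and below, summed counts were divided by the summed TMM-scaled library sizes of their group before a ratio or bound was taken.

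Both clones lost transcripts of the receptor and of 4 genes of secreted or milk fat products, and kept those of STAT5 and SOCS2. In clone 1, 4 of the 10 genes were higher and 5 lower than in the control (adjusted p under 0.05, edgeR quasi-likelihood test). Of all 13928 genes tested, 37.9% were higher and 38.6% lower, 76.5% in all. In clone 2, 5 were higher and 5 lower, where 37.3% of all genes were higher and 37.1% lower, 74.4% in all. Prlr, Btn1a1, Trf, Wfdc18 and Csn3 fell in both clones, as did 29.4% of all genes. Stat5a, Stat5b, Socs2 and Xdh rose in both, as did 28.7% of all genes. With most genes called, the number of members called says little about them, and their size and order carry the description. The median log2 fold change of the 10 genes was -2.59 in clone 1 and -3.71 in clone 2 (-2.15 with genes at 0 counts set to their bound), while that of all genes tested was 0.0025 in clone 1 and -0.0027 in clone 2. The medians of the members are midpoints of a gap and describe no member. In clone 1 the gap ran from Prlr (-5.24) to Mfge8 (0.05), and in clone 2 from Wfdc18 (fitted -7.59) to Stat5b (0.18). Setting them against all genes is no test, since Btn1a1, Trf, Wfdc18 and Csn3 passed the filter through the control alone. TMM scaling also centres the bulk of genes near 0, so the medians of all genes are near 0 by construction. The 2 comparisons share the control libraries.

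**Figure D1:**
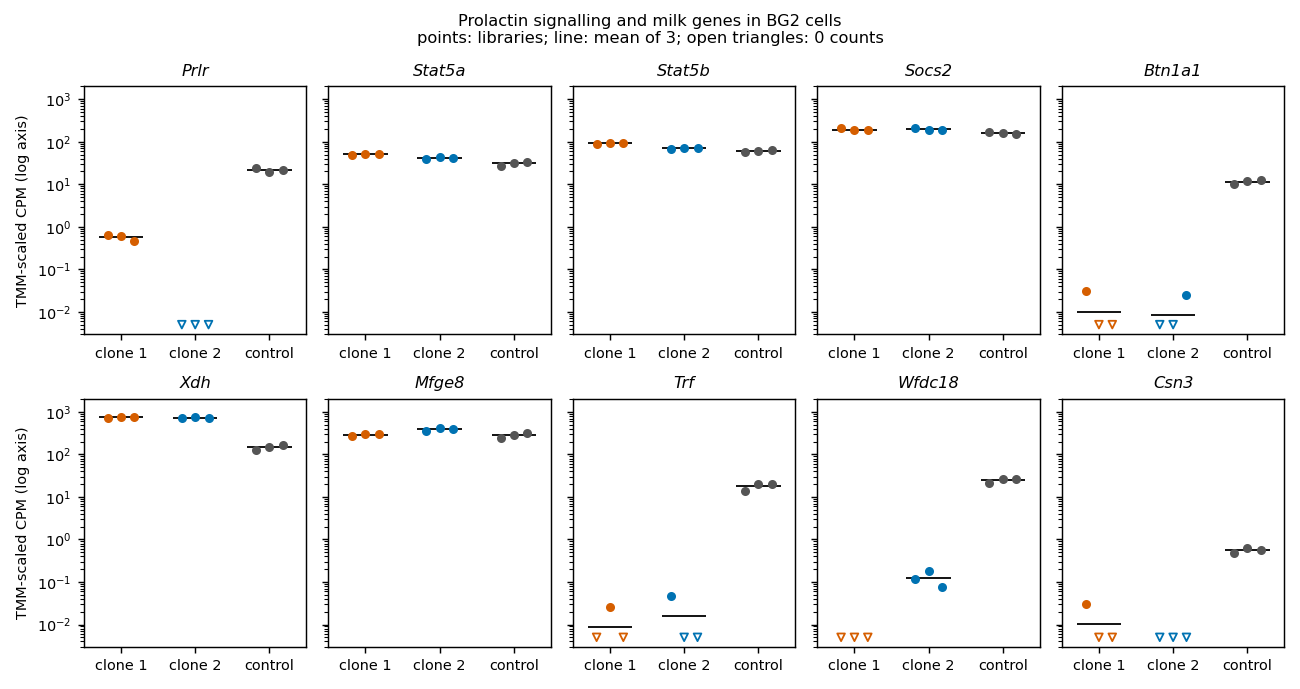
Level of each of the 10 genes in every library, as TMM-scaled CPM on a log axis, with clone 1, clone 2 and the control from left to right; points are libraries, lines are means of 3 and open triangles are libraries with 0 counts. Prlr, Btn1a1, Trf, Wfdc18 and Csn3 sit far below the control in both clones, the points of Stat5a, Stat5b, Socs2 and Mfge8 lie close together across groups, and Xdh sits 5.02-fold above the control in clone 1 and 4.91-fold in clone 2.

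Prlr (Entrez ID 19116; chromosome 15, 10177238 to 10349180 on GRCm38, plus strand) was cut sharply in clone 1 and was not detected in clone 2. It had 42, 46 and 33 counts in clone 1, 0 in each library of clone 2, and 1669, 1427 and 1744 counts in the control. The 3 groups did not overlap. The mean was 0.571 ± 0.0867 CPM in clone 1 and 21.6 ± 2.41 CPM in the control (SD, n = 3 each), a log2 fold change of -5.24 ± 0.16 with adjusted p = 1.8e-09 in edgeR. Clone 2 was at least 854-fold lower than the control (adjusted p = 3.56e-10, edgeR) and at least 22.6-fold lower than clone 1 (adjusted p = 2.23e-06, edgeR). These bounds set the 0 counts to a floor of 6 counts over the 3 libraries of a group, taken as 3 fragments. Counts do not separate the long receptor isoform, which signals through STAT5, from the short ones. A GENCODE model on the same strand, Gm21973, overlaps Prlr by 23801 bases, and 1.03% of the 50-base windows of Prlr transcripts occur in another gene.

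The RefSeq promoter table (GRCm38.p6, from 250 bases before to 50 after a start site) matched 5 of the 10 genes: Prlr, Stat5a, Stat5b, Mfge8 and Wfdc18, with 9 start sites. The motif TTCNNNGAA, which reads the same on both strands, was searched in these windows because it is the element STAT5 binds. It was found in 1 of the 9, at 110 bases before one of the start sites of Prlr, and in 8.30% of the 32851 windows of all genes. Cish and Elf5, 2 targets of prolactin and STAT5 described below, were searched as well. The window of Cish, a textbook STAT5 target, held 2 copies in tandem, starting at bases 1 and 12 counted from the start site as base 1. For Elf5 no copy was found. The 2 stretches are shown 5′ to 3′ with the motif in capitals, Prlr at chr15:10223766-10223834 and Cish at chr9:107296654-107296679, both on the plus strand.
Prlr: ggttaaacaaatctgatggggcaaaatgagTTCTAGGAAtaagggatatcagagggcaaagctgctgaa
Cish: cagttTTCCTGGAAagTTCTTGGAAa
Of the SOX-type core motifs, ACAAAG was in 0 of the 9 windows and in 18.7% of all windows, and ACAATG in 1 of the 9, at 129 bases before the start of Wfdc18, and in 12.6% of all windows, counting both strands. Elf5 held ACAATG on the minus strand, 207 bases before a start site, and Cish held neither motif. A match is a run of letters and not a measured site of binding.

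The JAK kinase genes Jak2, Jak1 and Tyk2 were each lower in both clones, by far less than Prlr. Jak2, the kinase the prolactin receptor uses, stood at 53.1 ± 5.61 CPM in clone 1, 32.3 ± 4.49 CPM in clone 2 and 69.3 ± 12.0 CPM in the control (SD, n = 3 each). Its log2 fold change was -0.38 ± 0.13 in clone 1 and -1.10 ± 0.13 in clone 2. The clone 1 call was lost without clone 1 replicate 2 (-0.32), clone 1 replicate 3 (-0.355) or control replicate 1 (-0.24). Jak1 fell by 0.27 ± 0.04 and 1.18 ± 0.04 on the log2 scale in clone 1 and clone 2, and Tyk2, another JAK kinase, fell by 0.74 ± 0.08 and 0.28 ± 0.08. Of 18 genes of receptor-proximal signalling, all tested, 5 rose in both clones, 5 fell in both, 1 was called in opposite directions, 5 in 1 clone only and 2 in neither. Beside this count and those of every list below, 28.7% of all genes tested rose in both clones and 29.4% fell in both. Gab2, a docking protein of receptor signalling, stood at 1.34 ± 0.401 CPM in clone 1, 2.01 ± 0.298 CPM in clone 2 and 19.7 ± 3.07 CPM in the control. Nek3, a kinase engaged by prolactin signalling, fell by 1.54 ± 0.15 in clone 1 on the log2 scale, and its value of -0.10 ± 0.14 in clone 2 did not pass. Ptpn6, the phosphatase SHP-1, fell by 1.27 ± 0.10 and 1.32 ± 0.10 on the log2 scale. Shc1, an adaptor to the RAS pathway, rose by 0.73 ± 0.05 and 0.65 ± 0.05, and Vav2, an exchange factor that prolactin signalling can engage, rose by 0.36 ± 0.06 and 1.10 ± 0.06. Fyn, a SRC-family kinase, stood at 12.3 ± 0.199 CPM in clone 1, 0.0842 ± 0.0389 CPM in clone 2 and 7.77 ± 0.571 CPM in the control, so that it rose in clone 1 and fell in clone 2. The median of the list was 0.11 in clone 1 and -0.04 in clone 2.

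The 2 STAT5 genes rose in both clones, more in clone 1 than in clone 2. They lie beside each other on chromosome 11, Stat5b (Entrez ID 20851; 100780731 to 100850724, minus strand) and Stat5a (Entrez ID 20850; 100859351 to 100885169, plus strand), with 8626 bases between them in GENCODE M21. Stat5a stood at 47.7, 52.4 and 52.2 CPM in clone 1, at 39.8, 43.3 and 42.4 CPM in clone 2, and at 27.2, 32.3 and 33.9 CPM in the control. No library of 1 group overlapped those of another. The log2 fold change against the control was 0.70 ± 0.08 in clone 1 (adjusted p = 1.16e-05, edgeR) and 0.43 ± 0.08 in clone 2 (adjusted p = 6.49e-04, edgeR), and clone 2 was lower than clone 1 by a log2 fold change of -0.28 ± 0.08 (adjusted p = 0.013, edgeR).

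Stat5b stood at 87.0, 95.8 and 96.0 CPM in clone 1, at 67.7, 70.5 and 70.1 CPM in clone 2, and at 58.7, 61.3 and 63.9 CPM in the control, again without overlap. It rose in clone 1 with a log2 fold change of 0.60 ± 0.06 (adjusted p = 1.58e-06, edgeR), and clone 2 was lower than clone 1 (-0.42 ± 0.06, adjusted p = 6.89e-05, edgeR). The rise in clone 2 was small, 0.18 ± 0.06 (adjusted p = 0.0126, edgeR), and its call was lost without clone 2 replicate 2 (0.14) or control replicate 1 (0.13). The paralogs share sequence: 8.21% of the 50-base windows of Stat5a transcripts and 11.0% of those of Stat5b occur in a transcript of another gene, mainly each other, so some of their reads could be split between them. Stat5a also overlaps Stat3 by 72 bases on the opposite strand, and the strand setting of the counting is not known. Per kilobase of annotated exon, Stat5b was at 16.8 ± 0.927 CPM in clone 1, 12.5 ± 0.277 CPM in clone 2 and 11.1 ± 0.469 CPM in the control, and Stat5a at 7.11 ± 0.375 CPM, 5.86 ± 0.258 CPM and 4.37 ± 0.496 CPM in the same groups, so that Stat5b was the higher in each.

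Stat3 and Stat6 rose in both clones as well. Stat3, the STAT of involution and of interleukin-6 signalling, stood at 515 ± 16.2 CPM in clone 1, 475 ± 15.9 CPM in clone 2 and 210.1 ± 14.3 CPM in the control, a log2 fold change of 1.29 ± 0.06 and 1.18 ± 0.06. These changes were larger than those of either STAT5 gene in the same libraries; that difference between genes was not tested. Stat6 rose by 0.59 ± 0.06 and 0.70 ± 0.06 on the log2 scale. Stat2 rose by 0.69 ± 0.07 in clone 1 and fell by 0.39 ± 0.07 in clone 2.

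Socs2 (Entrez ID 216233; chromosome 10, 95385362 to 95417180, minus strand), the SOCS protein best known for restraining growth hormone signalling and which also acts on the prolactin receptor, was abundant in all groups. It stood at 205, 185 and 187 CPM in clone 1, at 211, 192.5 and 192.4 CPM in clone 2, and at 166, 160.0 and 156 CPM in the control. Every library of the clones was above every control library, and the clones overlapped each other. Its log2 fold change was 0.26 ± 0.06 in clone 1 (adjusted p = 0.00146, edgeR) and 0.31 ± 0.06 in clone 2 (adjusted p = 4.69e-04, edgeR), and the difference between the clones was 0.05 ± 0.06 (adjusted p = 0.51, edgeR).

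Cish, whose protein CISH is the closest relative of SOCS2 and whose promoter motifs are shown above, went the other way. It stood at 0.770 ± 0.0339 CPM in clone 1, 0.638 ± 0.0756 CPM in clone 2 and 8.05 ± 0.678 CPM in the control (SD, n = 3 each). The log2 fold change was -3.38 ± 0.14 in clone 1 (adjusted p = 1.5e-09, edgeR) and -3.66 ± 0.14 in clone 2 (adjusted p = 9e-10, edgeR). Socs3, an inhibitor induced by STAT3, rose, at 127 ± 5.87 CPM in clone 1 and 59.9 ± 3.77 CPM in clone 2, against 24.3 ± 1.25 CPM in the control. Socs1 rose by 1.08 ± 0.13 and 0.87 ± 0.13 on the log2 scale, and Socs6 fell by 0.57 ± 0.09 and 0.58 ± 0.09. Of the 11 other SOCS and PIAS genes, all tested, 6 rose in both clones, 2 fell in both (Cish and Socs6), 1 was called in opposite directions and 2 in clone 2 alone. The median of this list was 0.30 in clone 1 and 0.43 in clone 2.

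**Figure D2:**
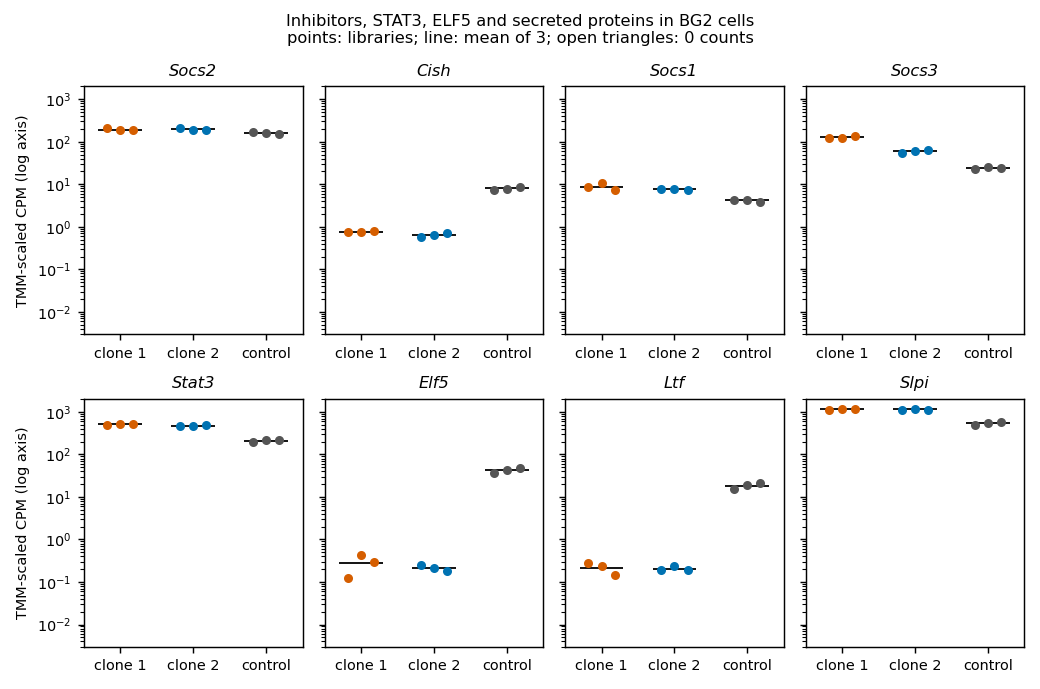
Level of 8 genes in every library, as TMM-scaled CPM on a log axis, with clone 1, clone 2 and the control from left to right; points are libraries and lines are means of 3. Socs2 lies nearly level across groups, while Cish averages 0.770 CPM in clone 1, 0.638 CPM in clone 2 and 8.05 CPM in the control, and Socs1, Socs3 and Stat3 lie above the control; Elf5 and Ltf are low in both clones, and Slpi is higher there.

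Known targets of prolactin and STAT5 did not move together. Of 12 listed, 11 were tested: 3 rose in both clones, 5 fell in both, 1 was called in opposite directions, 1 in clone 1 alone and 1 in neither. Of all genes tested, 28.7% rose in both clones and 29.4% fell in both, so these counts say little about the targets. Their medians were -0.43 in clone 1 and 0.08 in clone 2. Without the 3 libraries numbered 1, 2 rose in both and 5 fell. Elf5, a transcription factor that prolactin induces in alveolar progenitors, stood at 0.285 ± 0.157 CPM in clone 1, 0.214 ± 0.0367 CPM in clone 2 and 43.3 ± 5.95 CPM in the control. Ccnd1, cyclin D1, fell by 0.78 ± 0.05 and 0.29 ± 0.05 on the log2 scale, Bcl2l1, an inhibitor of apoptosis, by 1.05 ± 0.07 and 0.45 ± 0.07, and the kinase gene Akt1 by 0.79 ± 0.06 in each clone. Bcl6, a repressor that competes for STAT5 sites, stood at 82.7 ± 0.720 CPM in clone 1, 73.2 ± 2.26 CPM in clone 2 and 19.0 ± 0.876 CPM in the control. Igf2, a growth factor, reached 56.0 ± 2.45 CPM in clone 1, against 1.12 ± 0.225 CPM in clone 2 and 0.742 ± 0.282 CPM in the control. Its call in clone 2 (0.59 ± 0.23) was lost without clone 2 replicate 3 (0.43), control replicate 1 (0.37) or control replicate 3 (0.50), without the 3 libraries numbered 1 (0.42), and in limma voom (0.63). Pim2, a survival kinase, fell by 0.43 ± 0.07 in clone 1 and rose by 1.22 ± 0.07 in clone 2.

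Of 10 transcription factors of alveolar cells, 9 were tested: 2 rose in both clones, 4 fell in both, 2 were called in opposite directions and 1 in neither, with medians of -0.05 in clone 1 and -0.93 in clone 2. Cebpb and Nr3c1, the glucocorticoid receptor gene that cooperates with STAT5 on milk genes, rose by 0.64 ± 0.11 and 0.67 ± 0.11 and by 1.01 ± 0.12 and 0.72 ± 0.12 on the log2 scale. Nfib, a factor bound with STAT5 at milk genes, fell by 0.49 ± 0.09 and 0.93 ± 0.09, and Id2, needed for alveolar growth, by 0.38 ± 0.10 and 1.23 ± 0.11. Ehf, an epithelial ETS factor, rose by 0.39 ± 0.12 in clone 1 and fell by 2.44 ± 0.13 in clone 2, and the clone 1 call was lost without clone 1 replicate 1 (0.29) or control replicate 2 (0.33).

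**Figure D3:**
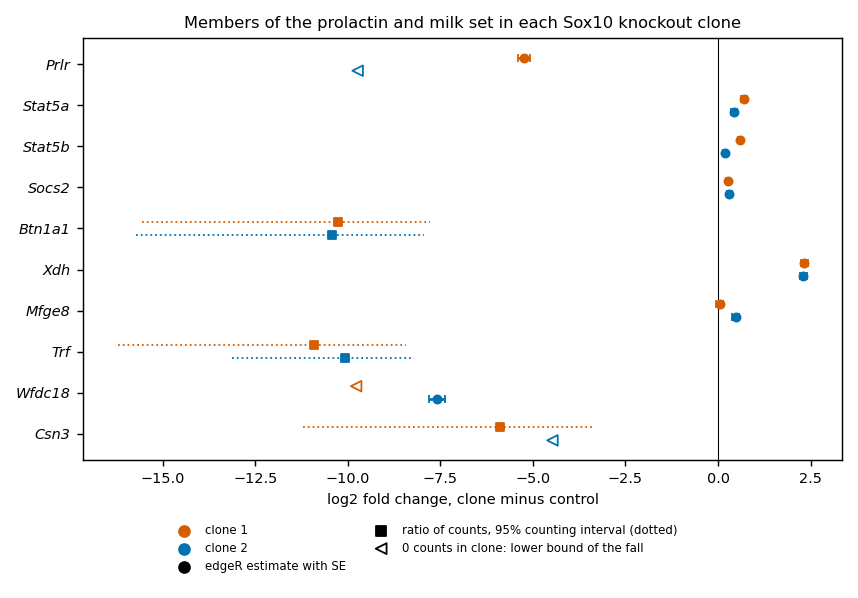
Log2 fold change of each of the 10 genes in clone 1 and clone 2 against the control; circles are edgeR estimates with their standard error, squares are ratios of summed counts with a 95% counting interval for groups with 1 to 20 counts, and open triangles are lower bounds of the fall for groups with 0 counts. The falls of Prlr, Btn1a1, Trf and Wfdc18 lie at -5.24 or lower in both clones, and the largest rise is 2.34, of Xdh in clone 1.

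The 3 members that make the membrane around secreted milk fat did 3 different things. Btn1a1 (Entrez ID 12231; chromosome 13, 23456992 to 23465901, minus strand) encodes butyrophilin, the main integral protein of that membrane. It had 2, 0 and 0 counts in clone 1 and 0, 0 and 2 counts in clone 2, against 700, 873 and 1029 counts in the control, which was 11.5 ± 1.32 CPM (SD, n = 3). The ratio of summed counts was 1230-fold lower in clone 1 (95% counting interval 220 to 48630) and 1377-fold lower in clone 2 (95% counting interval 247 to 54410), and edgeR gave adjusted p = 1.04e-09 and 9.15e-10. The intervals take every 2 counts as 1 fragment and cover counting error only.

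Xdh (Entrez ID 22436; chromosome 17, 73883895 to 73950196, minus strand) encodes xanthine oxidoreductase, which binds butyrophilin at the apical membrane and also makes uric acid in purine breakdown. It stood at 708, 760 and 767 CPM in clone 1, at 714, 747 and 730 CPM in clone 2, and at 124, 152 and 167 CPM in the control. The clones overlapped each other and lay wholly above the control. The log2 fold change was 2.34 ± 0.09 in clone 1 (adjusted p = 8.69e-10, edgeR) and 2.31 ± 0.09 in clone 2 (adjusted p = 1.01e-09, edgeR), and -0.03 ± 0.09 between the clones (adjusted p = 0.808, edgeR). Of 8 other genes of purine breakdown, 5 rose in both clones, 1 fell in both and 2 were called in neither, with medians of 0.52 and 0.74. Gda, guanine deaminase, which makes xanthine, the substrate of this enzyme, stood at 139 ± 14.7 CPM in clone 1, 138 ± 15.8 CPM in clone 2 and 4.79 ± 0.0527 CPM in the control, with log2 fold changes of 4.86 ± 0.11 and 4.85 ± 0.11. Nt5e, which makes adenosine outside the cell, rose by 1.37 ± 0.07 and 2.16 ± 0.07, and Uox, which degrades the uric acid that xanthine oxidoreductase makes, reached 0.744 ± 0.166 CPM and 4.42 ± 0.139 CPM, against 0.0551 ± 0.0310 CPM in the control. Nt5c2, a cytosolic nucleotidase, fell by 1.31 ± 0.05 and 0.85 ± 0.05.

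Mfge8 (Entrez ID 17304; chromosome 7, 79133768 to 79149060, minus strand) encodes lactadherin, which coats milk fat globules and tethers apoptotic cells to phagocytes. It stood at 267, 307 and 299.9 CPM in clone 1, at 362, 415 and 401 CPM in clone 2, and at 241, 291 and 312 CPM in the control. Clone 1 overlapped the control, and clone 2 lay above both. The log2 fold change was 0.05 ± 0.09 in clone 1 (adjusted p = 0.634, edgeR), where it turned to -0.054 without control replicate 1, and 0.48 ± 0.09 in clone 2 (adjusted p = 6.55e-04, edgeR). The difference between the clones was 0.43 ± 0.09 (adjusted p = 0.00226, edgeR). Of 13 genes of its receptors and of apoptotic cell uptake, 11 were tested: 4 rose in both clones, 4 fell in both, 1 was called in opposite directions and 2 in 1 clone only, with medians of -0.28 and 0.13. The receptor kinase gene Axl rose, at 1028 ± 45.5 CPM in clone 1 and 1234 ± 49.0 CPM in clone 2, against 112 ± 6.14 CPM in the control. Tyro3, of the same receptor family, rose by 2.30 ± 0.09 and 2.39 ± 0.09 on the log2 scale, and Pros1, one of their ligands, by 5.24 ± 0.12 and 6.04 ± 0.12. Gas6, their other ligand, had 2 counts in each clone and 285 counts in the control. Edil3, the closest relative of Mfge8, stood at 0.112 ± 0.0202 CPM in clone 1, 0.0592 ± 0.0153 CPM in clone 2 and 1.39 ± 0.308 CPM in the control. Dock1, which acts downstream of engulfment receptors, had 33 counts in clone 1, 0 in clone 2 and 12987 in the control.

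Other genes of milk fat moved both ways. Of 22 listed, 16 were tested: 5 rose in both clones, 7 fell in both, 3 were called in opposite directions and 1 in clone 2 alone, with medians of -0.42 and -0.30. Among genes of fatty acid synthesis, Fasn, fatty acid synthase, stood at 550 ± 37.7 CPM in clone 1, 527 ± 41.4 CPM in clone 2 and 1306 ± 128 CPM in the control, and Acaca, Acly and Scd2 fell by 0.39 ± 0.07, 0.46 ± 0.05 and 0.66 ± 0.05 on the log2 scale in clone 1 and by 0.58 ± 0.07, 0.23 ± 0.05 and 0.88 ± 0.05 in clone 2. Plin2, the protein of the lipid droplet that becomes the core of the globule, fell by 1.27 ± 0.07 and 0.89 ± 0.07. Among genes of triglyceride assembly, Dgat1 rose by 1.20 ± 0.07 and 0.62 ± 0.07, Gpat4 by 0.52 ± 0.06 and 0.74 ± 0.06, and Dgat2 to 3.97 ± 0.799 CPM and 17.0 ± 0.470 CPM, against 0.771 ± 0.0599 CPM in the control. Gpam, an acyltransferase of the same pathway, fell by 0.52 ± 0.06 and 0.51 ± 0.06. Scd1, a desaturase, rose by 1.34 ± 0.06 and 1.65 ± 0.06. Muc1, a mucin of the globule membrane, rose by 1.96 ± 0.31 in clone 1 and by 0.86 ± 0.32 in clone 2, where the call was lost without clone 2 replicate 1 (0.88) or replicate 3 (0.75) or without control replicate 1 (0.90), 2 (0.79) or 3 (0.85), and in limma voom (0.85). Btn2a2, a relative of Btn1a1, had 0 counts in both clones and 93 counts in the control. Lpl, lipoprotein lipase, stood at 0.0799 ± 0.0819 CPM in clone 1, 28.3 ± 2.87 CPM in clone 2 and 0.594 ± 0.251 CPM in the control, and Muc15, another mucin of the globule, at 0.302 ± 0.0133 CPM, 4.66 ± 1.44 CPM and 1.98 ± 0.625 CPM in the same groups.

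All 3 milk protein members fell to or near 0 in both clones. Trf (Entrez ID 22041; chromosome 9, 103204001 to 103230444, minus strand) encodes transferrin, the iron carrier of serum and of rodent milk. It had 0, 2 and 0 counts in clone 1 and 4, 0 and 0 counts in clone 2, against 967, 1482 and 1637 counts in the control, which was 18.1 ± 3.56 CPM (SD, n = 3). The ratio of summed counts was 1932-fold lower in clone 1 (95% counting interval 346 to 76340) and 1081-fold lower in clone 2 (95% counting interval 299 to 8931), and edgeR gave adjusted p = 1.73e-09 and 1.64e-09. A GENCODE model on the same strand, Gm20425, overlaps Trf, and 59.4% of the 50-base windows of Trf transcripts occur in another gene, so its level depends on how such reads were counted.

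Of 9 genes of the transferrin family and iron handling, 7 were tested: 4 rose in both clones and 3 fell in both, with medians of 1.31 and 1.11. Ltf, which encodes lactoferrin, the iron-binding relative of transferrin in milk, stood at 0.217 ± 0.0668 CPM in clone 1, 0.207 ± 0.0268 CPM in clone 2 and 18.5 ± 2.91 CPM in the control. Tfrc, the receptor that takes up transferrin, rose, at 427 ± 40.4 CPM in clone 1 and 378 ± 47.2 CPM in clone 2, against 172 ± 37.4 CPM in the control. Steap3, which reduces the iron taken up, rose by 2.18 ± 0.09 and 2.64 ± 0.09 on the log2 scale, and Slc11a2, which carries it out of the endosome, by 1.39 ± 0.05 and 1.40 ± 0.05. Slc40a1, ferroportin, the iron exporter, had 0 counts in both clones and 1563 counts in the control, a fall of at least 246-fold for clone 1 and of at least 276-fold for clone 2. The ferritin subunit genes parted: Fth1 rose by 1.65 ± 0.08 and 1.11 ± 0.08 and Ftl1 fell by 1.00 ± 0.09 and 0.54 ± 0.09.

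Wfdc18 (Entrez ID 14038; chromosome 11, 83709015 to 83711348, plus strand) encodes a small secreted protein with a whey acidic protein domain. It had 0 counts in each library of clone 1, 10, 14 and 6 counts in clone 2, and 1514, 1934 and 2122 counts in the control, where the mean was 24.7 ± 2.49 CPM (SD, n = 3). Clone 1 was at least 878-fold lower than the control (adjusted p = 6.93e-10, edgeR). Clone 2, at 0.127 ± 0.0547 CPM, had a log2 fold change of -7.59 ± 0.21 (adjusted p = 1.06e-09, edgeR) and was at least 4.47-fold higher than clone 1 (adjusted p = 5.40e-04, edgeR).

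Of 9 other genes of the whey acidic protein domain family, 7 were tested: 3 rose in both clones, 1 fell in both, 1 was called in opposite directions and 2 in 1 clone only, with medians of 1.10 and 2.59 (2.09 with genes at 0 counts set to their bound). Slpi, a secreted protease inhibitor, rose, at 1166 ± 30.9 CPM in clone 1 and 1141 ± 29.9 CPM in clone 2, against 545 ± 44.5 CPM in the control. Wfdc2 stood at 0.0626 ± 0.0262 CPM in clone 1, 239 ± 5.92 CPM in clone 2 and 643 ± 57.8 CPM in the control, so that it was nearly lost in clone 1 and fell by 1.43 ± 0.07 on the log2 scale in clone 2. Wfdc21 had 1067 counts in clone 1, 4147 in clone 2 and 1 in the control, and Wfdc12 had 517, 27 and 0 counts in the same groups. Wfdc3 fell by 1.39 ± 0.22 in clone 1 and rose by 0.84 ± 0.20 in clone 2.

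Csn3 (Entrez ID 12994; chromosome 5, 87925579 to 87932665, plus strand) encodes kappa-casein, which keeps casein micelles in suspension. It was scarce in every group, with 2, 0 and 0 counts in clone 1, 0 in each library of clone 2, and 34, 46 and 46 counts in the control, which was 0.560 ± 0.0657 CPM (SD, n = 3). The control lay above both clones without overlap. The ratio of summed counts was 59.6-fold lower in clone 1 (95% counting interval 10.3 to 2390, adjusted p = 5.58e-05, edgeR), and clone 2 was at least 22.2-fold lower (adjusted p = 2.57e-05, edgeR). An antisense gene that overlaps Csn3, 1700066N21Rik, had 0 counts in all groups.

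The other major milk proteins were at or near 0 counts in every group. Csn1s2a, Wap, Lalba and Glycam1 had 0 counts in all 9 libraries. Csn1s1 had 0 counts in both clones and 24 in the control, Csn2, beta-casein, 0 in both clones and 6 in the control, and Csn1s2b 0 in both clones and 2 in the control. Of the 12 other milk protein genes listed, 4 were tested: 1 rose in both clones, 2 fell in both and 1 was called in clone 1 alone, with medians of -1.02 and -3.41 (-1.88 with genes at 0 counts set to their bound). Spp1, osteopontin, which is secreted in milk and by many other cells, rose, at 2214 ± 235 CPM in clone 1 and 1234 ± 160 CPM in clone 2, against 952 ± 54.5 CPM in the control. Pthlh, a hormone of calcium supply to milk, rose by 1.18 ± 0.25 on the log2 scale in clone 1, and its value of -0.34 ± 0.26 in clone 2 did not pass. Pigr, which carries immunoglobulin A into milk, had 6 counts in clone 1, 0 in clone 2 and 61 in the control.

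**Figure D4:**
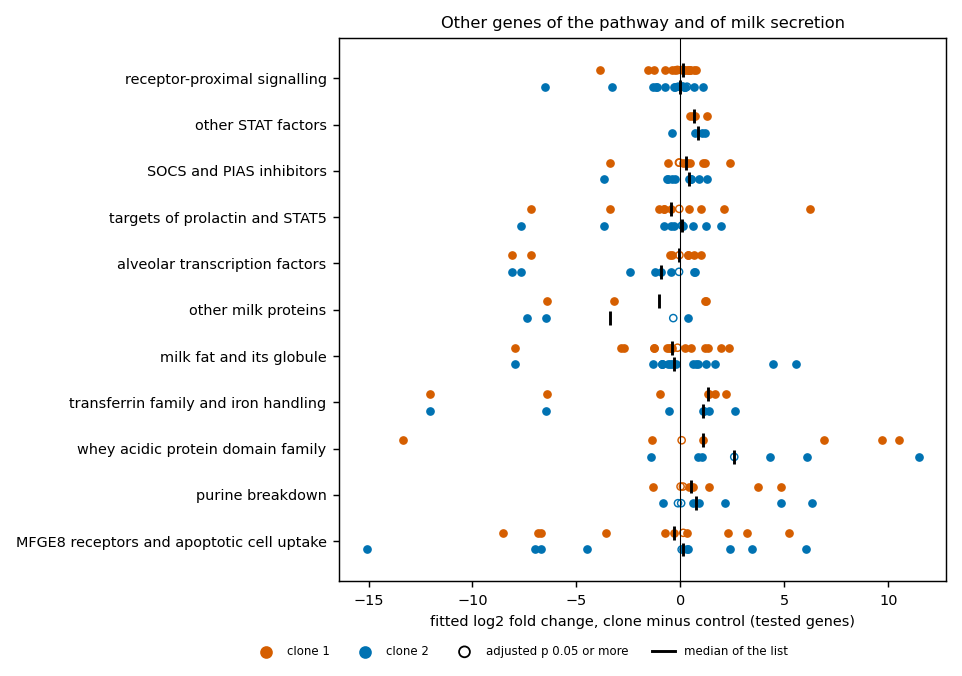
Fitted log2 fold change of every tested gene in 11 lists of pathway and milk genes, clone 1 above clone 2 within each list; filled points have adjusted p under 0.05 in edgeR, open points do not, and black bars are medians. Most lists spread to both sides of 0, and values of genes with 0 counts in a group depend on the fit and are no bounds.

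Between the clones, 2 of the 10 genes were higher in clone 2 (Mfge8 and Wfdc18) and 3 lower (Prlr, Stat5a and Stat5b), where 30.1% of all genes were higher and 27.5% lower, 57.6% in all. Socs2 and Xdh did not pass the test between the clones, at the differences and standard errors given above. For Btn1a1, Trf and Csn3 both clones were at or under the floor, and no fold is given.

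Per kilobase of annotated exon the order of the members changed between groups. The length is the union of all annotated exons of a gene, which can exceed that of its main transcript. The order between genes, here and for Stat5a and Stat5b above, therefore depends on the annotation. Xdh was the highest in clone 1, at 81.2 ± 3.57 CPM, ahead of Mfge8 at 62.1 ± 4.55 CPM, Socs2 at 20.2 ± 1.19 CPM, Stat5b and Stat5a. In clone 2 Mfge8 at 83.6 ± 5.89 CPM and Xdh at 79.6 ± 1.79 CPM lay within their spread of each other, ahead of Socs2 at 20.9 ± 1.15 CPM. In the control Mfge8 was the highest, at 60.0 ± 7.86 CPM, followed by Wfdc18 at 20.3 ± 2.04 CPM, Socs2 at 16.9 ± 0.514 CPM and Xdh at 16.1 ± 2.35 CPM, of which the last 2 lay within their spread. Below these in the control were Stat5b, Trf at 5.45 ± 1.07 CPM, Stat5a, Btn1a1 at 2.80 ± 0.321 CPM, Prlr at 1.41 ± 0.157 CPM and Csn3 at 0.135 ± 0.0158 CPM.

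The genes whose level across the 9 libraries was nearest to a member were found by Euclidean distance on log2(CPM + 0.1). For Prlr these were Mamdc2, at 0.520 ± 0.139 CPM in clone 1, 0.00851 ± 0.0147 CPM in clone 2 and 24.1 ± 0.882 CPM in the control, then Fst, the activin inhibitor follistatin, and E2f6, a repressor of the E2F family, at distances of 0.906, 1.09 and 1.33. For Wfdc18 they were Spsb4, Ano9 and Unc13b, at 0.540, 0.908 and 1.13. For Xdh they were Gsto1, Sulf2 and Aldh3a1, at 0.763, 0.934 and 1.14, and for Stat5a Tmem208, Cln6 and Fxyd5, at 0.186, 0.195 and 0.212. With 3 groups many genes share such a pattern.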

How the data were processed

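The deposited values are counts: whole numbers per Entrez gene in 1 table with 9 libraries, without normalization. Per the submitters' processing notes the authors used fastp, Subread and DESeq2 with mm10 and GRCm38; the sources used here give no versions, annotation, strand setting or pooling. The labels describe stranded, polyA-enriched RNA. Of 24594 genes, 24570 had a RefSeq symbol. Between 71.8% and 77.3% of values from 1 to 10 were even, against 48.4% to 51.6% of values from 1000 to 2000, so that a read pair may have counted as 2. The floor for 0 counts was therefore 3 fragments, or 6 counts, over the 3 libraries of a group, and the exact 95% intervals of ratios, given up to 20 counts, took 2 counts as 1 fragment. Both cover counting error only.

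Counts were fitted in R 4.3.3 with edgeR 4.0.16 (filterByExpr, minimum count 10; TMM; quasi-likelihood test; 1 factor of 3 groups), with Benjamini-Hochberg adjustment over 13928 genes. The standard error is the absolute log2 fold change over the square root of F. The fit was tested on simulated data. Alternatives used DESeq2 1.42.0 and limma 3.58.1. Exon lengths and coordinates are from GENCODE M21 and promoters from RefSeq.

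The members, the 11 pathway lists and the 6 marker lists were chosen with earlier results of these data known. Named genes were the members, Sox10, up to 4 genes per list with the largest mean change at 1 CPM or more, up to 2 called in opposite directions, list genes given with their level, and the 3 genes nearest to a member. Some list genes are not reported here.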

Additional observations from a re-analysis of the deposited data

Results flagged for a closer look

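For 5 of the 10 members the change from the control differed between the clones, by the edgeR test of clone 2 minus clone 1 over all genes. The same test called 57.6% of all genes. The fitted log2 fold change of clone 2 minus clone 1 was -8.42 for Prlr (adjusted p = 2.23e-06), which rests on 0 counts in clone 2 and is no bound, and 6.26 for Wfdc18 (adjusted p = 5.40e-04), which rests on 0 counts in clone 1. It was -0.28 for Stat5a (adjusted p = 0.013), -0.42 for Stat5b (adjusted p = 6.89e-05) and 0.43 for Mfge8 (adjusted p = 0.00226).

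Of the other genes named by the rule, 10 were called in opposite directions in the clones. The rule picks up to 2 such genes per list, so their number follows from the choice, and the share among all genes was not counted. Clone 2 was the lower for Fyn (-7.16), Stat2 (-1.08), Socs5 (-0.74), Ehf (-2.82) and Esr1 (-0.81). Clone 2 was the higher for Pim2 (1.65), Lpl (8.43), Muc15 (3.94), Wfdc3 (2.22) and Itgb5 (0.63). Each value is the log2 fold change of clone 2 minus clone 1 and passed the same test. The opposite directions rest in part on unstable calls against the control: the clone 1 call was lost under 6 alternatives for Socs5, including DESeq2, 5 for Esr1, 2 for Ehf and 1 for Itgb5, and the clone 2 call of Esr1 under 1.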

How the results depend on the processing

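Over 17 alternatives, 454 of 457 values of the 10 members kept their direction and their side of the threshold. The exceptions were Stat5b in clone 2, which lost its call without clone 2 replicate 2 (0.14) or control replicate 1 (0.13), and Mfge8 in clone 1, which was called under none of them and ran from -0.054 without control replicate 1 to 0.12 without control replicate 3. The number of genes called stayed within 1.5-fold of the value given for every comparison and alternative. With single libraries left out, clone 1 had 10129 to 10843 such genes, clone 2 had 9886 to 10544, and the comparison of the clones had 7030 to 8556. Under the stricter filter Csn3 was not tested. Of 2916 values of the other named genes, 43 lost a call and 0 changed direction. Besides those given above these were Grb2, Socs5, Esr1 and Itgb5 in clone 1 and Socs4 and Esr1 in clone 2. Leaving out all libraries numbered 1 was chosen after seeing the data.

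The groups share replicate numbers. Deviations from the group means of equally numbered libraries correlated at 0.21 to 0.25 for number 1, 0.05 to 0.11 for number 2 and 0.01 to 0.09 for number 3. Libraries numbered 1 correlated best with their own number in every pair of groups, those numbered 2 in none, and those numbered 3 in some. What the libraries numbered 1 have in common was not tested. With the replicate number as a block, clone 1 had 11420 genes called, clone 2 had 11257, and the comparison of the clones had 9439. Without the block these were 10653, 10367 and 8018. The number of members called was 9, 10 and 5 with and without the block.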
